A study of Mus musculus with 16 samples.

Results

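Iron and haem handling was followed through 10 genes in the brain of mice after experimental stroke. The genes are Lcn2, Hmox1, Fth1, Ftl1, Tfrc, Trf, Slc40a1, Slc11a2, Hamp and Flvcr1, out of 19938 genes tested on the array. Each gene was represented by a probe set annotated to that gene alone, and by the one with the highest mean where there were several. All 10 were measured, and dim probe sets were kept.

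RNA came from the brains of male mice of 8 weeks and was measured on 16 Affymetrix Mouse Gene 1.0 ST arrays, 4 in each of 4 groups. The groups are labelled TNF knockout at 24 h after stroke, TNF knockout naive, C57BL/6 at 24 h after stroke and C57BL/6 naive. Stroke was made by permanent occlusion of the middle cerebral artery (pMCAO), which stops blood flow to part of the cortex. The knockout is labelled as of Tnf, the gene of an inflammatory cytokine, with no allele or line named. No group is labelled as sham-operated, so the occlusion and the surgery cannot be told apart. Replicate numbers are given without saying that each array came from a separate animal, and the p-values may then measure only technical spread. Whole brain was sampled, so the infarct, its border and untouched tissue were measured together, and fewer cells of a type and less RNA per cell cannot be told apart.

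All values are log2 probe set summaries, so 1 unit is a change by a factor of 2. Array medians were 6.01 to 6.05, and arrays of 1 group correlated at 0.991 to 0.996. The number of arrays limits the precision. All 12 neuron markers read above the array median, the lowest of them at the 89th percentile of an array. Tnf went against its label. It read 6.75, 6.60, 6.99 and 6.88 in stroke arrays labelled TNF knockout and 6.14, 6.46, 6.47 and 6.58 in naive arrays with that label. C57BL/6 arrays read 5.64, 5.28, 5.67 and 5.68 after stroke and 5.01, 5.72, 5.08 and 5.41 in naive mice. Tnf was thus higher in the arrays labelled TNF knockout, by 1.24 ± 0.14 (SE) after stroke and 1.11 ± 0.14 in naive mice. The labels and files do not say which part of Tnf its probe set covers, and one lying outside the deletion would check nothing. The labels' sample names add a second doubt. All C57BL/6 names begin with KL42, while 4 TNF knockout names begin with KL76 and 4 with KL82, and the labels do not say what a prefix stands for. TNF knockout label and prefix therefore cannot be told apart in any comparison with C57BL/6.

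Cells take up iron bound to transferrin (Trf) through the transferrin receptor (Tfrc), move it into the cytosol through the transporter DMT1 (Slc11a2) and store it in ferritin, made of heavy (Fth1) and light (Ftl1) chains. Ferroportin (Slc40a1) exports iron and is degraded when bound by the peptide hormone hepcidin (Hamp). Haem oxygenase 1 (Hmox1) breaks haem down to biliverdin, carbon monoxide and iron, and FLVCR1 (Flvcr1) exports haem. Lipocalin 2 (Lcn2) binds bacterial siderophores, the molecules by which bacteria take up iron, and is an acute phase protein. Oligodendrocytes are a main source of transferrin in the brain.

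After stroke, 2 of the 10 genes passed the test in each label, Lcn2 and Hmox1, and both were higher. Over all genes tested, 0.642% passed in the arrays labelled TNF knockout and 1.68% in C57BL/6. Values of stroke and naive arrays did not overlap for 4 genes in the arrays labelled TNF knockout, 3 higher and 1 lower, and for 3 genes in C57BL/6, all higher. Over all genes the share without overlap was 5.87% in the arrays labelled TNF knockout and 8.26% in C57BL/6. Beside Lcn2 and Hmox1 these genes were Flvcr1 (higher) and Slc40a1 (lower) in the arrays labelled TNF knockout, and Ftl1 in C57BL/6. Flvcr1 was barely apart, with a lowest stroke value of 7.97 and a highest naive value of 7.96. Its stroke difference was 0.21 ± 0.11 there (limma, adjusted p = 0.621) and 0.08 ± 0.11 in C57BL/6. In the mean of both stroke changes the same 2 genes passed, against 2.8% of all genes. The median change of the 10 genes was 0.09 in the arrays labelled TNF knockout and 0.06 in C57BL/6, beside 0.00 and -0.01 over all genes. For the other 8 genes no stroke difference was over 0.55 in size under either label.

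**Figure D1:**
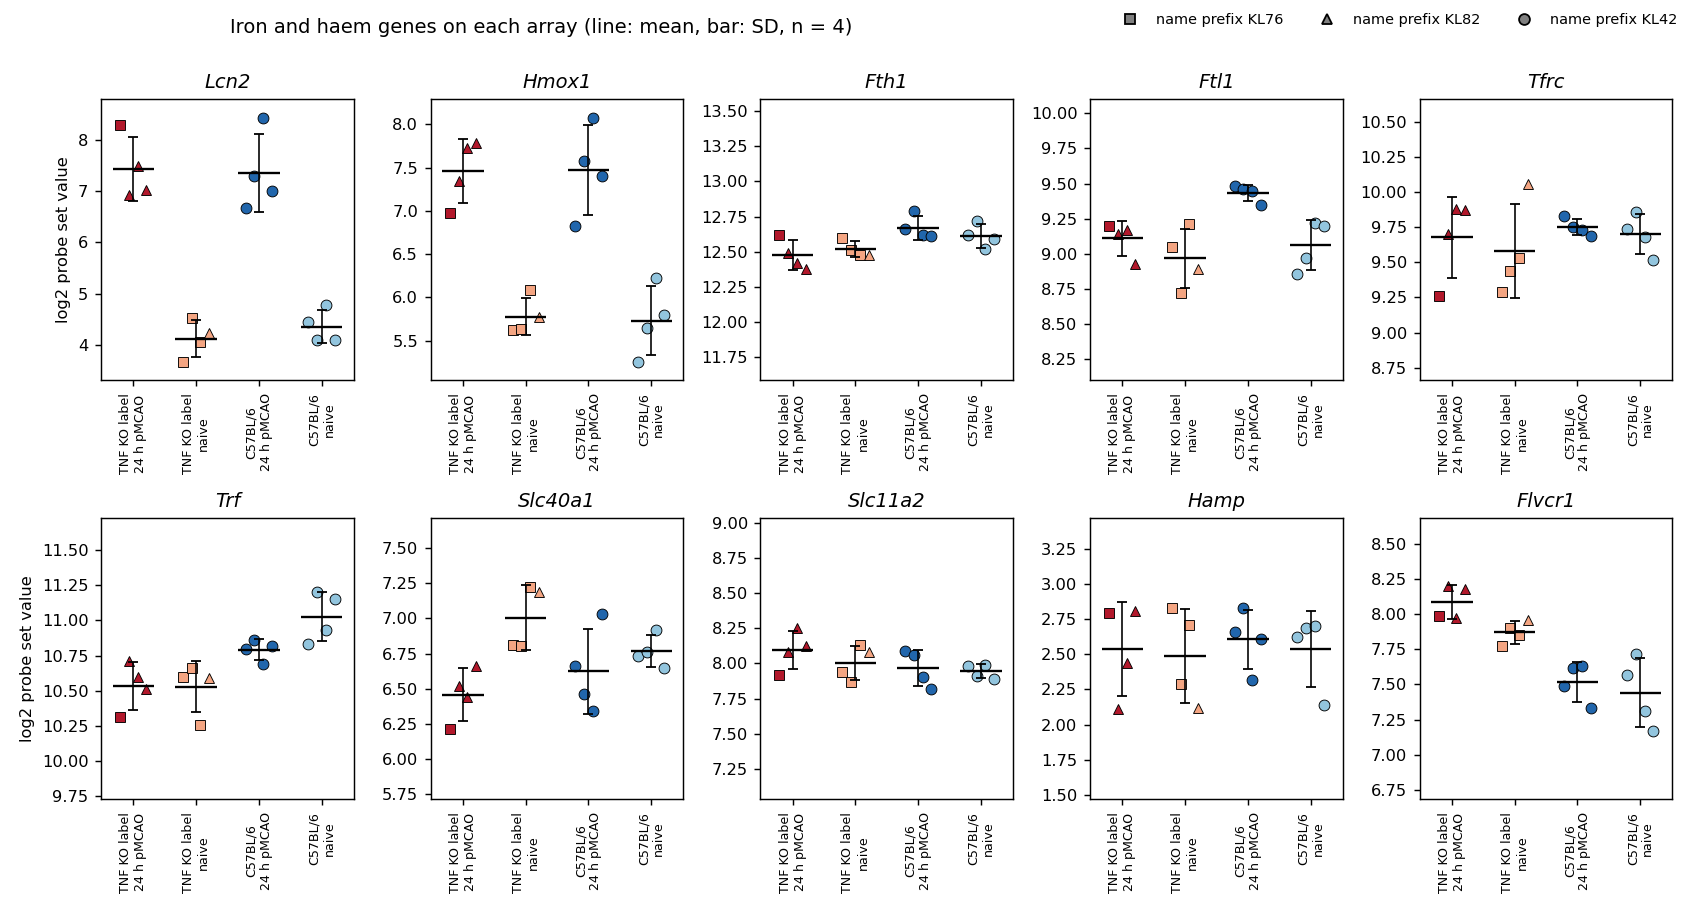
Log2 probe set values (vertical axes, each spanning at least 2 log2 units) of the 10 genes on all 16 arrays, with 4 groups along each horizontal axis, lines at group means and bars of 1 SD (n = 4). Colours mark groups and symbols mark sample name prefixes. Lcn2 and Hmox1 separate stroke from naive arrays under both labels, and the other 8 genes vary over a narrower range.

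Lcn2 read 8.30, 6.93, 7.50 and 7.02 in stroke arrays labelled TNF knockout, against 3.66, 4.52, 4.05 and 4.23 in naive arrays with that label. C57BL/6 arrays read 6.68, 7.29, 8.44 and 7.01 after stroke, against 4.45, 4.10, 4.77 and 4.09 in naive mice. Every stroke array lay above every naive array, and the spread between stroke arrays was wider than between naive arrays under both labels. The difference was 3.32 ± 0.31 (SE) or 10-fold under the TNF knockout label (limma, adjusted p = 5.76e-06). The C57BL/6 difference was 3.0 ± 0.31 or 8.01-fold (limma, adjusted p = 3.62e-05). Lcn2 had increases that ranked 3 of all genes in the arrays labelled TNF knockout and 2 in C57BL/6. Among the group means of all genes tested, its mean was at the 67.2 percentile in stroke arrays labelled TNF knockout. In naive arrays with that label it was at the 16.5 percentile. In C57BL/6 these were the 65.7 percentile after stroke and the 18.3 percentile in naive mice.

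Hmox1 read 6.98, 7.35, 7.73 and 7.78 in stroke arrays labelled TNF knockout, against 5.62, 5.63, 6.09 and 5.77 in naive arrays with that label. C57BL/6 arrays read 6.83, 7.58, 8.08 and 7.40 after stroke, against 5.25, 5.65, 6.22 and 5.80 in naive mice. Again no stroke array overlapped a naive one. Hmox1 rose by 1.68 ± 0.23 or 3.21-fold under the TNF knockout label (limma, adjusted p = 0.00039) and by 1.74 ± 0.23 or 3.35-fold in C57BL/6 (limma, adjusted p = 0.000258). Both genes passed in all 16 fits without 1 array.

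Among the stroke arrays labelled TNF knockout, replicate 1 was highest for Lcn2 and lowest for Hmox1, whereas in C57BL/6 replicate 3 was highest and replicate 1 lowest for both genes. Replicate 1 of the TNF knockout label is the 1 stroke array named KL76, and the other 3 are named KL82. Within KL76 the stroke change was 4.22 for Lcn2 and 1.20 for Hmox1 (1 stroke and 3 naive arrays). Within KL82 it was 2.92 for Lcn2 and 1.85 for Hmox1 (3 stroke arrays and 1 naive array). Both genes were thus higher after stroke within each prefix, with no test in groups of this size.

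The stroke changes were set against each other, TNF knockout label minus C57BL/6, and 0 of the 10 genes passed (limma), as did 0% of all genes. At an unadjusted p under 0.05 there was 1 gene, Slc40a1. The difference of changes was 0.32 ± 0.44 for Lcn2 (95% interval -0.60 to 1.24; limma, adjusted p = 0.88) and -0.06 ± 0.32 for Hmox1 (-0.73 to 0.61; limma, adjusted p = 0.977). A p that misses the threshold does not show that the responses were alike, and the Lcn2 interval is wide. Within a state, Lcn2 differed between the labels by 0.08 ± 0.31 after stroke and -0.24 ± 0.31 in naive mice, and Hmox1 by -0.01 ± 0.23 after stroke and 0.05 ± 0.23 in naive mice. None of these passed.

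**Figure D2:**
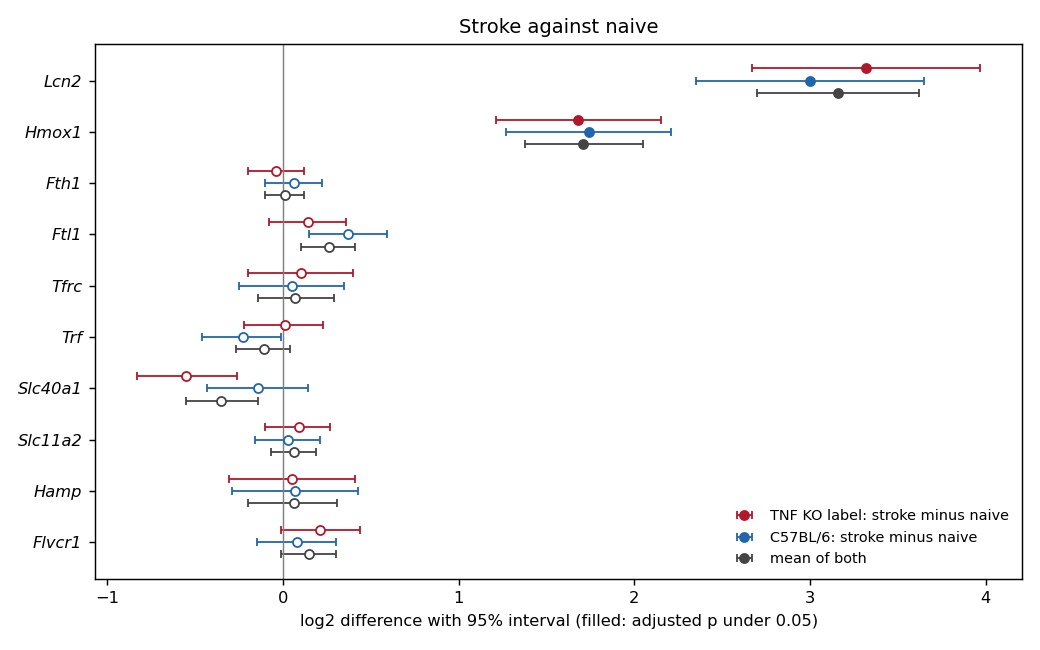
Log2 difference of stroke minus naive (horizontal axis) for each of the 10 genes (rows) in the arrays labelled TNF knockout, in C57BL/6 and as the mean of both, with 95% intervals from limma. Filled points passed at an adjusted p under 0.05, and only Lcn2 and Hmox1 are filled.

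The promoter of Lcn2 is shown because the list below of known activators of its transcription includes the factors that bind such motifs. RefSeq windows of 250 bases before to 50 after a gene's start (GRCm38.p6) were at hand for 6 of the 10 genes, Lcn2, Fth1, Ftl1, Tfrc, Hamp and Flvcr1. The 250 bases before the start of Lcn2, at chr2:32387740-32387989 on the minus strand, read 5′ to 3′ as follows. Capitals mark, in order, a C/EBP match (TTGCNNAA) and an NF-kB match on the opposite strand (GGG, then any 5 bases, then CC).
Lcn2 promoter: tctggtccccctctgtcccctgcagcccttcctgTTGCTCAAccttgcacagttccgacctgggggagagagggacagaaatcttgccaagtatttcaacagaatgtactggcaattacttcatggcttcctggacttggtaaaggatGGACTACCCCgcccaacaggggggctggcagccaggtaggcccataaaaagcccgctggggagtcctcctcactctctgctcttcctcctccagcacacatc
Counted from the start, the C/EBP match lies at -216 to -209 and the NF-kB match at -102 to -93. Both strands were searched. Of 32851 RefSeq windows, 10.8% hold the C/EBP motif and 50.8% the NF-kB motif, so the second is common. The 6 genes have 8 windows, of which 7 hold the NF-kB motif (Lcn2, Fth1, Ftl1, Tfrc and Flvcr1). The C/EBP motif is in 2 of the 8, of Lcn2 and Fth1. Both motifs are thus also found at Fth1, which did not pass after stroke. The STAT motif TTCNNNGAA, in 8.3% of windows, was not among these letters. A match is a description of sequence and was not tested as a binding site.

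A further 104 genes were listed, of iron and haem pathways and of known activators of Lcn2 transcription, and 97 were measured. Of these pathway genes, 4 rose after stroke in each label (4.12%) and 0 fell. Over all genes 0.642% passed in the arrays labelled TNF knockout and 1.68% in C57BL/6. The 4 in the arrays labelled TNF knockout, Stat3, Cebpd, Il6 and Osmr, were all activators, and no gene of the iron and haem lists passed there. In C57BL/6 the activators Stat3 and Osmr passed, with Cp and Nfe2l2. Of the C57BL/6 calls, Cp, Nfe2l2 and Stat3 were lost when only the groups compared were fitted, which left Osmr. In the mean of both stroke changes 9 rose (9.28%, against 2.8% of all genes) and 0 fell, while at an unadjusted p under 0.05 there were 18 higher and 4 lower. The median of these mean changes over the pathway genes was 0.04, beside 0.00 over all genes.

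The activators of Lcn2 transcription held 4 of the 9, out of 10 measured. Osmr, the receptor subunit for oncostatin M, rose by 1.02 ± 0.16 in the arrays labelled TNF knockout and by 1.32 ± 0.16 in C57BL/6. Stat3, the transcription factor activated downstream of such receptors, rose by 0.52 ± 0.10 in the arrays labelled TNF knockout and by 0.54 ± 0.10 in C57BL/6. Cebpd, a C/EBP family factor of the acute phase response, rose by 0.56 ± 0.10 under the TNF knockout label (limma, adjusted p = 0.00405), and its difference of 0.20 ± 0.10 in C57BL/6 did not pass. The cytokine gene Il6 likewise passed in the arrays labelled TNF knockout (0.85 ± 0.17, limma, adjusted p = 0.0177) and not in C57BL/6 (0.47 ± 0.17). Neither gene's difference between the labels passed. With prefix as a term, Stat3 and Il6 no longer passed in the arrays labelled TNF knockout.

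Of 13 import and reduction genes 1 passed in the mean of both changes, Steap4, a metalloreductase (0.67 ± 0.14, limma, adjusted p = 0.0136). Of 9 ferroxidases, ferritin cargo factors and iron chaperones 1 passed, Cp, the ferroxidase ceruloplasmin (0.37 ± 0.07, adjusted p = 0.00277). Of 14 genes of haem degradation, scavenging and transport 1 passed, Nfe2l2, the NRF2 transcription factor that activates Hmox1 (0.33 ± 0.06, adjusted p = 0.00209). Flvcr2, a haem and choline transporter gene, differed by -0.24 ± 0.07 (adjusted p = 0.0543) and did not pass. Of 12 lipid peroxidation and ferroptosis genes 2 passed, Slc7a11 (0.32 ± 0.07) and Slc3a2 (0.24 ± 0.05), which together form the cystine and glutamate exchanger that supplies glutathione synthesis. Among 16 iron regulatory and hepcidin control genes, 8 haem synthesis genes and 15 mitochondrial iron genes, 0 passed in this mean (limma), with 1 higher and 1 lower at an unadjusted p under 0.05. These were Nfs1, the cysteine desulphurase of iron-sulphur cluster assembly, at 0.21 ± 0.06 (adjusted p = 0.0857), and Bmp6, a signal for hepcidin, at -0.19 ± 0.06 (adjusted p = 0.0854).

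**Figure D3:**
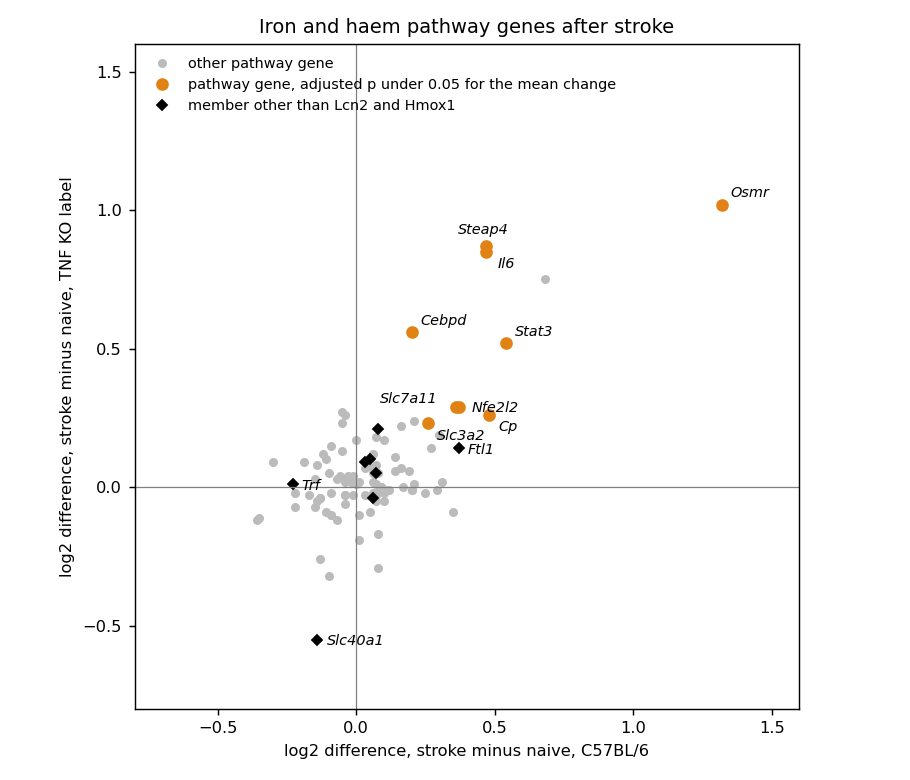
Log2 stroke change in the arrays labelled TNF knockout (vertical axis) against that in C57BL/6 (horizontal axis) for the 97 pathway genes and the 8 members other than Lcn2 and Hmox1. The 9 orange genes passed for the mean of both changes and lie above 0 on both axes, while Slc40a1 is the lowest point.

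Some cell type markers also changed after stroke. Of 16 reactive astrocyte markers 10 rose in each label and 0 fell, and their mean level per array was 6.76 to 6.84 in stroke arrays labelled TNF knockout against 5.78 to 5.88 in naive arrays with that label. The C57BL/6 level was 6.50 to 7.07 after stroke and 5.79 to 5.93 in naive mice. Osmr, Cp and Steap4 stand in both the pathway lists and this marker list. Of 15 activated microglia and macrophage markers 5 rose in the arrays labelled TNF knockout and 6 in C57BL/6. Neutrophils, which also make Lcn2, had 0 of 14 markers past the threshold in either label (limma), with 4 higher at an unadjusted p under 0.05 in the arrays labelled TNF knockout and 3 in C57BL/6. In the mean of both changes 2 of the 14 rose, the chemokine receptor gene Cxcr2 (0.71 ± 0.15) and Retnlg (0.35 ± 0.07). The neutrophil markers' mean level was 4.0 to 4.33 in stroke arrays labelled TNF knockout against 3.88 to 3.93 in naive arrays with that label. The C57BL/6 level was 3.88 to 4.24 after stroke and 3.93 to 4.07 in naive mice, all below the array medians. Of 6 red blood cell markers measured 0 passed (limma), with 1 lower in C57BL/6 at an unadjusted p under 0.05, and haemoglobin genes were not analysed here. In the mean of both changes, 1 of 9 resident microglia markers rose, Fcrls, and 1 fell, Siglech. Of 11 endothelial markers 2 rose there, Mfsd2a and Slc2a1, the second passing in 4 of 16 fits without 1 array. Of 12 neuron markers 1 fell there, Tubb3. Of 13 oligodendrocyte and 11 choroid plexus markers 0 passed there (limma). The part of all these markers in the Lcn2 and Hmox1 results was not tested.

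The genes whose profile over the 16 arrays was nearest to that of Lcn2 were Ccl12 (root mean square difference 0.421), Ccl3 (0.651), Cxcl10 (0.675), Lilr4b (0.82) and Serpina3n (0.874). The first 3 encode chemokines. Nearest to Hmox1 were Ptx3 (0.374), a pattern recognition protein gene, Lilr4b (0.389), Serpina3n (0.419), Ctsc (0.435) and Osmr (0.465). Lcn2 and Hmox1 lay 1.06 apart. Distances were taken after centring each gene on its naive C57BL/6 mean, so a gene with a like size of change comes out near.

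Neither ferritin gene passed the test after stroke. Ftl1 read 9.20, 9.14, 9.17 and 8.93 in stroke arrays labelled TNF knockout, against 9.05, 8.72, 9.21 and 8.89 in naive arrays with that label. In C57BL/6 it read 9.48, 9.46, 9.45 and 9.35 after stroke, against 8.86, 8.97, 9.22 and 9.20 in naive mice. Stroke and naive arrays were apart in C57BL/6 and overlapped in the arrays labelled TNF knockout. The difference was 0.14 ± 0.10 in the arrays labelled TNF knockout and 0.37 ± 0.10 in C57BL/6 (limma, adjusted p = 0.0759), and neither passed. The C57BL/6 difference passed without the dimmest genes (adjusted p = 0.0402) and with trended variances (adjusted p = 0.0363). After stroke, Ftl1 differed by -0.32 ± 0.10 between the labels, with all 4 arrays labelled TNF knockout below every C57BL/6 array, and did not pass (adjusted p = 0.208). A further 4 probe sets share the Ftl1 symbol with 2 microRNA symbols and gave 0.11 to 0.15 in the arrays labelled TNF knockout and 0.33 to 0.39 in C57BL/6. They may read near-identical copies of the gene and are no independent measurements. Fth1 read 12.38 to 12.62 after stroke and 12.48 to 12.60 in naive mice with the TNF knockout label, and 12.61 to 12.79 after stroke and 12.52 to 12.72 in naive C57BL/6 mice. Its stroke differences of -0.04 ± 0.08 in the arrays labelled TNF knockout and 0.06 ± 0.08 in C57BL/6 did not pass, and the first turned positive under quantile normalization. Its mean was at the 99.9 percentile of the means of all genes tested in every group.

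Ferroportin had the most negative stroke difference of the 10 genes, and it did not pass. Slc40a1 read 6.21, 6.52, 6.44 and 6.66 in stroke arrays labelled TNF knockout, against 6.81, 6.80, 7.22 and 7.19 in naive arrays with that label. In C57BL/6 it read 6.66, 6.46, 6.34 and 7.03 after stroke, against 6.73, 6.76, 6.92 and 6.65 in naive mice. Stroke arrays lay below all naive arrays in the TNF knockout label and overlapped them in C57BL/6. The difference was -0.55 ± 0.14 under the TNF knockout label (limma, adjusted p = 0.088). It was -0.73 within KL76 and -0.65 within KL82. It passed with prefix as a term (-0.69, adjusted p = 0.0452) and without stroke replicate 4 of C57BL/6 (adjusted p = 0.0311). The C57BL/6 difference was -0.14 ± 0.14 (adjusted p = 0.633). The difference of the changes, -0.40 ± 0.19, did not pass (adjusted p = 0.672). The mean of both changes was -0.35 ± 0.10 and lay just outside the threshold (adjusted p = 0.06). That mean passed under 7 of the other settings, among them leaving out stroke replicate 4 of C57BL/6 (-0.41, adjusted p = 0.0111) and quantile normalization (adjusted p = 0.0455).

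The uptake genes and hepcidin did not pass after stroke. Tfrc read 9.26, 9.70, 9.88 and 9.87 in stroke arrays labelled TNF knockout, against 9.29, 9.44, 9.53 and 10.06 in naive arrays with that label. C57BL/6 arrays read 9.69 to 9.83 after stroke and 9.52 to 9.86 in naive mice. Its stroke difference was 0.10 ± 0.14 in the arrays labelled TNF knockout and 0.05 ± 0.14 in C57BL/6. In the TNF knockout label the KL82 arrays were higher than the KL76 arrays, by 0.56 after stroke and 0.64 in naive mice. With prefix as a term the stroke difference there turned to -0.20. For Trf the stroke difference was 0.01 ± 0.11 in the arrays labelled TNF knockout and -0.23 ± 0.11 in C57BL/6 (limma, adjusted p = 0.264). Slc11a2 read 7.92 to 8.25 after stroke and 7.87 to 8.13 in naive mice with the TNF knockout label, and 7.82 to 8.09 after stroke and 7.89 to 7.99 in naive C57BL/6 mice. Its difference was 0.09 ± 0.09 in the arrays labelled TNF knockout and 0.03 ± 0.09 in C57BL/6, the second turning to -0.01 under quantile normalization. Hamp read 2.11 to 2.81 after stroke and 2.12 to 2.83 in naive mice with the TNF knockout label, and 2.32 to 2.83 after stroke and 2.14 to 2.70 in naive C57BL/6 mice. Its group means stood at the 1.52 to 1.97 percentile of the means of all genes tested. Whether Hamp rose above background could therefore not be judged from this table.

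Between the labels, Trf and the Flvcr1 probe set used here differed. In naive mice 1 of 10 genes passed, Trf, against 0.386% of all genes, and 2 genes did not overlap, 1 higher and 1 lower, against 8.65%. After stroke 1 of 10 passed, Flvcr1, against 0.436%, and 2 genes did not overlap, 1 higher and 1 lower, against 5.8%. In the mean over both states these 2 passed, against 2.62% of all genes.

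Trf read 10.31, 10.71, 10.60 and 10.51 in stroke arrays labelled TNF knockout, against 10.80, 10.86, 10.69 and 10.82 in C57BL/6 stroke arrays. In naive mice it read 10.60, 10.66, 10.26 and 10.59 in the arrays labelled TNF knockout, against 10.83, 11.20, 10.93 and 11.15 in C57BL/6. The groups were apart in naive mice and overlapped after stroke. The label difference of Trf was -0.50 ± 0.11 in naive mice (limma, adjusted p = 0.0427) and -0.26 ± 0.11 after stroke (adjusted p = 0.355). These 2 were not shown to differ, as the difference of the stroke changes, 0.24 ± 0.15, did not pass (limma, adjusted p = 0.726). With each array left out in turn, the naive difference passed 6 of 16 times, and with prefix as a random block it did not pass (adjusted p = 0.0532). The mean over both states, -0.38 ± 0.07 (adjusted p = 0.00997), passed in all 16. Oligodendrocyte markers also differed between the labels, and so did some markers of other cell types, given after Flvcr1. In the mean over both states 13 of the 13 were below 0, 9 of them at an unadjusted p under 0.05 (limma). After stroke these counts were also 13 and 9, and in naive mice 10 and 4, with 2 above 0. Past the threshold in the mean 3 of 13 fell, the myelin genes Cnp (-0.37 ± 0.05), Cldn11 (-0.44 ± 0.08) and Mag (-0.27 ± 0.07). Mag passed in 3 of the 16 fits without 1 array. The median of the 13 was -0.22 beside -0.01 over all genes. That median was -0.34 after stroke (Cnp passed) and -0.14 in naive mice (0 passed). The mean level of the 13 was 8.32 to 8.64 in stroke arrays labelled TNF knockout against 8.72 to 9.05 in C57BL/6 stroke arrays. In naive mice it was 8.55 to 8.70 in the arrays labelled TNF knockout and 8.64 to 8.83 in C57BL/6. Their part in the Trf result was not tested.

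Flvcr1 read 7.99, 8.20, 7.97 and 8.18 in stroke arrays labelled TNF knockout, against 7.49, 7.62, 7.63 and 7.33 in C57BL/6 stroke arrays. In naive mice it read 7.77, 7.90, 7.85 and 7.96 in the arrays labelled TNF knockout, against 7.57, 7.72, 7.31 and 7.17 in C57BL/6. With the probe set of the higher mean, used here, the label groups were apart in both states. Flvcr1 was 0.57 ± 0.11 higher after stroke (limma, adjusted p = 0.0162), and its difference of 0.43 ± 0.11 in naive mice did not pass (adjusted p = 0.082). The mean over both, 0.50 ± 0.08 (adjusted p = 0.00114), passed in all 16 fits without 1 array. The stroke difference was lost without stroke replicate 4 of C57BL/6 and without replicates 2 or 4 of the TNF knockout label. A second Flvcr1 probe set, with a mean of 7.69 over all arrays against 7.73 for the first, showed less. Its label groups overlapped in both states. With every probe set tested, it gave 0.24 ± 0.10 after stroke (limma, adjusted p = 0.369) and 0.09 ± 0.10 in naive mice (adjusted p = 0.69). In the mean over both states it gave 0.16 ± 0.07 (adjusted p = 0.22), against 0.50 ± 0.08 for the first (adjusted p = 0.00165). The mean of both probe sets gave 0.33 in the mean over both states and passed (adjusted p = 0.00682).

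Some markers of 3 cell types also differed between the labels, the oligodendrocyte markers given with Trf and those of 2 further types. They did not all go in the same direction. Of 11 endothelial markers 1 fell, the tight junction gene Cldn5, by 0.54 ± 0.11 after stroke (limma, adjusted p = 0.0396) and by 0.33 ± 0.08 in the mean over both states (adjusted p = 0.0342). It passed in 5 of 16 fits without 1 array after stroke and in 6 of 16 in the mean. After stroke 11 of the 11 endothelial markers were below 0, and their mean level was 7.50 to 7.54 in the arrays labelled TNF knockout against 7.67 to 7.85 in C57BL/6. In naive mice 0 of the 11 passed, and their mean level was 7.49 to 7.68 in the arrays labelled TNF knockout and 7.48 to 7.69 in C57BL/6. Of 15 activated microglia and macrophage markers, the lipoprotein lipase gene Lpl was higher by 0.93 ± 0.08 in the mean over both states (adjusted p = 9.98e-07), and it passed in each state. The scavenger receptor gene Cd36 fell by 0.30 ± 0.07 in that mean (adjusted p = 0.0368), passing in 5 of 16 fits without 1 array. After stroke Cd36 fell by 0.53 ± 0.10 (adjusted p = 0.0192) and the lysosomal gene Cd68 by 0.38 ± 0.08 (adjusted p = 0.034). The mean level of these 15 markers after stroke was 6.77 to 6.89 in the arrays labelled TNF knockout and 6.73 to 7.06 in C57BL/6. In naive mice it was 6.26 to 6.40 in the arrays labelled TNF knockout and 6.20 to 6.28 in C57BL/6. Their part in the Flvcr1 and Trf results was not tested.

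**Figure D4:**
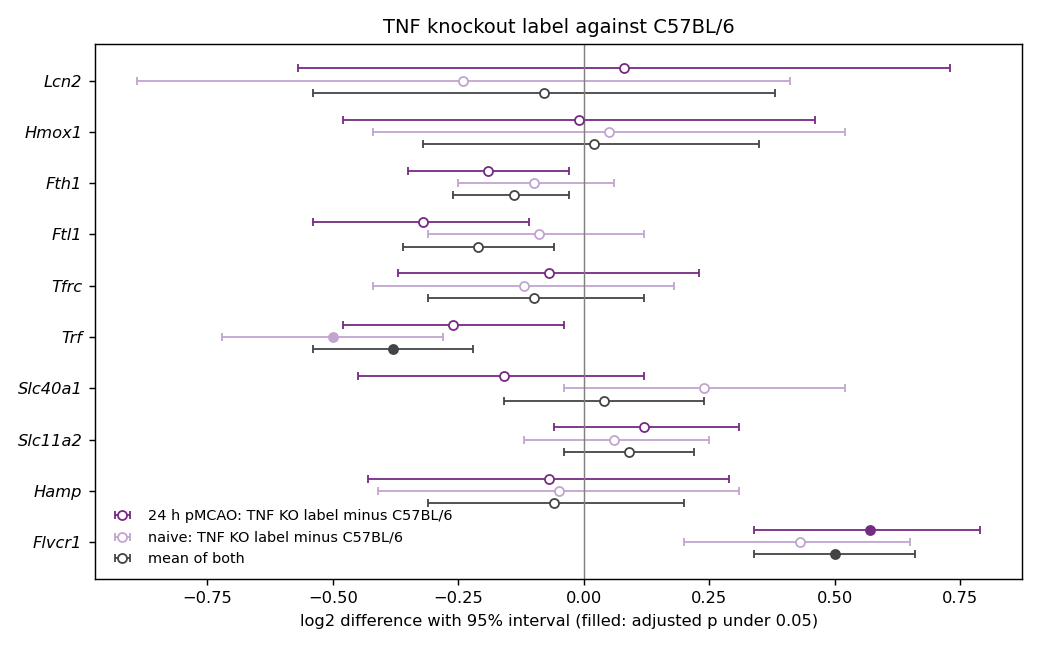
Log2 difference of the TNF knockout label minus C57BL/6 (horizontal axis) for the 10 genes (rows) after stroke, in naive mice and as the mean of both, with 95% intervals from limma. Filled points passed at an adjusted p under 0.05, and these are Trf in naive mice, Flvcr1 after stroke, and both genes in the mean.

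**Figure D5:**
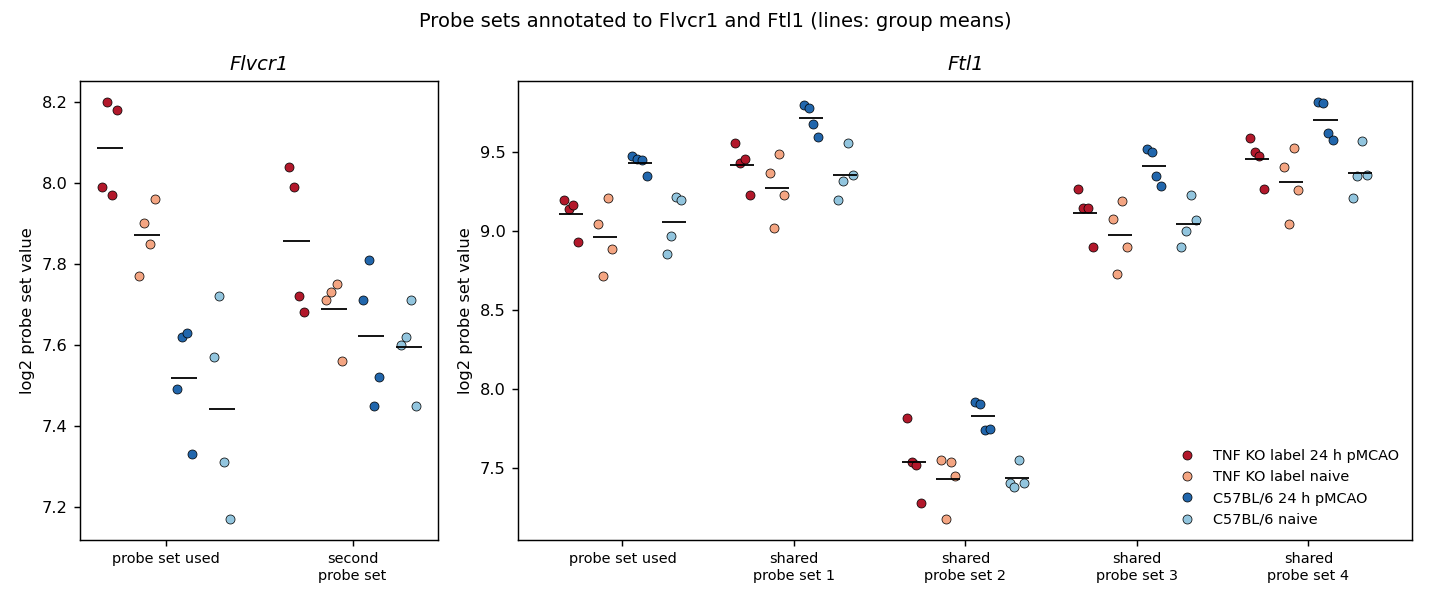
Log2 values (vertical axes) of the probe sets annotated to Flvcr1 and Ftl1 on each array, by group, with lines at group means. The 2 Flvcr1 probe sets separate the labels by different amounts, and the 5 Ftl1 probe sets run in parallel.

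Of the 97 pathway genes, 0 passed between the labels after stroke and 0 in naive mice (limma), against 0.436% and 0.386% of all genes. At an unadjusted p under 0.05, 4 were higher and 6 lower after stroke, and 8 higher and 6 lower in naive mice. In the mean over both states 1 rose and 1 fell, which is 2.06% of the pathway genes against 2.62% of all genes. Abcb8, a mitochondrial transporter gene, was higher there by 0.32 ± 0.07 under the TNF knockout label (limma, adjusted p = 0.0271). It passed in 11 of the 16 fits without 1 array. Id1, a target of bone morphogenetic protein signalling, fell by 0.33 ± 0.07 in the mean over both states (adjusted p = 0.0178).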

How the data were processed

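Affymetrix Mouse Gene 1.0 ST arrays were used to measure total brain RNA, 1 array per sample. RNA was extracted with Trizol and labelled with biotin, per the labels' protocols. The log2 values are probe set summaries that the authors deposited with 2 decimals. GCOS, GCRMA, Partek and RMA are named in the submitters' processing notes without versions or roles. No detection calls or probe-level intensities were used. The table holds 28944 probe sets. Symbols came from GEO's platform annotation, with 1 symbol for 21789 probe sets, several for 1621 and none for 5534.

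For 19938 genes on 16 arrays, limma 3.58.1 (R 4.3.3) fitted 4 group means and tested 7 contrasts. The moderated tests of eBayes had 12 residual degrees of freedom and 7.52 from the prior. P-values are two-sided, adjusted by Benjamini and Hochberg over all genes, with a threshold of 0.05. The script was tested on simulated data. The genes, lists and tests were chosen with earlier results of these data known. Named are the 10 genes, Tnf, the 5 nearest profiles of Lcn2 and of Hmox1, and up to 4 genes per pathway list with the smallest p in the mean stroke change or past the threshold elsewhere. Marker genes are named as checks. Promoter windows came from RefSeq. Figures were drawn with matplotlib 3.10.9 from tables made with pandas 2.3.3 and numpy 2.4.6 (Python 3.11.15). The alternatives tried are given in the closing section.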

Additional observations from a re-analysis of the deposited data

Results flagged for a closer look

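Hamp in naive C57BL/6 mice read 2.62, 2.69, 2.70 and 2.14, and the fourth array lay far below the other 3, past Dixon's criterion for an outlying value among 4. It was 1 of 40 sets of 4 arrays examined for the 10 genes, and chance alone passes about 1 set in 20. All Hamp values were among the lowest of their arrays, and no comparison of Hamp passed the test with or without that array.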

How the results depend on the processing

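The arrays were also quantile normalised or centred on their medians, the dimmest 33.3 percent of genes removed, a gene's probe sets averaged, or every probe set tested (added after seeing the data). Variances were trended or robust, the threshold was 0.01, the fit held only the groups compared, and replicate number or name prefix entered as a block. Each array was left out once. Lcn2 and Hmox1 passed after stroke in every fit, under both labels. The labels do not say that replicate numbers pair arrays. With the replicate block, the fit gave 2 of 10 genes after stroke in each label, 1 between the labels in each state, 0 for the difference of changes, 3 in the mean stroke change (Slc40a1 added) and 2 in the mean label difference. As a check, each array's deviations from its group means were correlated across genes between same-numbered stroke and naive arrays. These correlations were 0.04 to 0.34 in the TNF knockout label and -0.07 to 0.18 in C57BL/6. Of the stroke arrays, 2 of 4 in the TNF knockout label and 1 of 4 in C57BL/6 correlated best with their own number. The arrays were not treated as paired, because the labels do not state pairs and not every pair was above 0.1. Over all genes the block gave 559 genes against 334 for stroke in C57BL/6, 140 against 128 in the TNF knockout label, 141 against 77 between labels in naive mice, 120 against 87 after stroke, 765 against 559 in the mean stroke change, 747 against 522 in the mean label difference and 1 against 0 for the difference of changes.

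Counts moved as follows, and the cause was not tested. Between labels in naive mice the count of 1 became 2 without dim genes, and 0 at a threshold of 0.01, with only the groups compared, or with prefix as a random block. After stroke it became 0 at a threshold of 0.01. Without 1 array each label count ranged from 0 to 1. In the mean stroke change the count of 2 became 4 without dim genes and 4 with trended variances. The pathway count without 1 array ranged from 2 to 5 in the arrays labelled TNF knockout, from 2 to 7 in C57BL/6 and from 8 to 11 in the mean. The C57BL/6 pathway count of 4 became 1 with only the groups compared, 2 at a threshold of 0.01, 7 with trended variances and 8 with the replicate block. The count of 4 in the TNF knockout label became 2 with prefix as a term and 2 at a threshold of 0.01, and the 2 genes in the mean label difference became 0 at 0.01. Over all genes and all settings, the count past the threshold ranged from 54 to 145 for stroke in the TNF knockout label, from 76 to 639 in C57BL/6 and from 0 to 3 for the difference of changes. Between labels it ranged from 36 to 165 after stroke and from 20 to 185 in naive mice.

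Changes that reversed were all of values that had not passed. Quantile normalization gave 0.01 for Fth1 after stroke in the TNF knockout label and -0.01 for Slc11a2 in C57BL/6. With prefix as a term, the stroke change in the TNF knockout label was 0.02 for Fth1, -0.20 for Tfrc and -0.09 for Trf, the difference of changes -0.25 for Tfrc, -0.02 for Slc11a2 and 0.19 for Hamp, and the mean stroke change of Tfrc -0.08. Without 1 array, the stroke change in the TNF knockout label ranged from -0.08 to 0.08 for Trf and from -0.07 to 0.19 for Hamp. In C57BL/6 it ranged from -0.01 to 0.10 for Tfrc, from -0.02 to 0.07 for Slc11a2, from -0.07 to 0.16 for Hamp and from -0.02 to 0.17 for Flvcr1. The label difference in naive mice ranged from -0.11 to 0.21 for Hmox1 and from -0.18 to 0.07 for Hamp. After stroke it ranged from -0.20 to 0.44 for Lcn2, from -0.23 to 0.19 for Hmox1, from -0.14 to 0.07 for Tfrc and from -0.16 to 0.08 for Hamp. The difference of changes ranged from -0.27 to 0.14 for Hmox1, from -0.05 to 0.21 for Tfrc and from -0.14 to 0.13 for Hamp. The mean stroke change ranged from -0.02 to 0.03 for Fth1 and from -0.01 to 0.13 for Hamp. The mean label difference ranged from -0.22 to 0.10 for Lcn2, from -0.09 to 0.12 for Hmox1, from -0.01 to 0.11 for Slc40a1 and from -0.13 to 0.01 for Hamp. Dim genes such as Hamp have no detection call here, which limits what their values show.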
